A study of Homo sapiens with 4 samples.

Results

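The genes of oxidative phosphorylation were followed across 4 RNA sequencing libraries of SUM159 cells, a triple-negative breast cancer line. Members were protein-coding genes chosen by symbol, namely the NDUFA, NDUFB, NDUFC, NDUFS and NDUFV genes of complex I, SDHA to SDHD of complex II, the UQCR genes and CYC1 of complex III, the COX4 to COX8 genes of complex IV, the ATP5 genes of complex V and the 13 protein genes of the mitochondrial genome. NDUFA4 was placed in complex IV, pseudogenes were left out, and so were assembly factors of the NDUFAF and SDHAF families. The rule found 104 members among the 60279 genes listed, of which 91 were nuclear and 13 mitochondrial. The nuclear members comprised 38 genes of complex I, 4 of complex II, 10 of complex III, 19 of complex IV and 20 of complex V. The mitochondrial genome held 7 members of complex I, 1 of complex III, 3 of complex IV and 2 of complex V, and none of complex II.

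Oxidative phosphorylation is the process by which mitochondria turn the energy of NADH and succinate into ATP. Complexes I and II pass electrons to ubiquinone, complex III hands them to cytochrome c, complex IV reduces oxygen with them, and the proton gradient built along the way drives ATP synthesis in complex V. All of these complexes except complex II are built from subunits of both genomes, so their assembly needs transcripts made in the nucleus and transcripts made inside the mitochondrion.

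Untreated cells were compared with cells given palbociclib, indisulam or both (called the combination), and each condition had 1 library. Palbociclib blocks the kinases CDK4 and CDK6, and indisulam brings the splicing factor RBM39 to a ubiquitin ligase for degradation. The sample labels gave 0.5 µM palbociclib, 2 µM indisulam and 10 days, whereas the text on the series gave 2 µM palbociclib, 3 µM indisulam and 16 h in technical duplicates. The groups follow the labels. The paper describes RNA sequencing of SUM159 cells at the doses and duration of the labels, used to score senescence gene sets. The doses and 16 h of the series text are those of its separate experiment on splicing errors. For the libraries of that shorter treatment the study used the aligner Hisat2, whereas the processing notes name TopHat2. The count tables hold no dose or duration, and whether duplicates were pooled is not stated. With no replicates, no difference had a replicate check and no p-value was computed. The labels name no engineered allele, and all 4 libraries came from this line.

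Gene totals ranged from 12555908 to 16712174 reads. Levels were given as CPM, the reads of a gene per 1000000 reads assigned to genes. VIM and CD44, markers of this mesenchymal-like line, reached 2643 to 4598 CPM and 706 to 883 CPM. The hormone receptor genes ESR1 and PGR stayed at or below 1.11 CPM and 0.209 CPM, and ERBB2 lay between 110 and 143 CPM. The leukocyte gene PTPRC (11.1 to 17.5 CPM) and the endothelial gene PECAM1 (15.2 to 40.9 CPM) were not at 0, and PECAM1 was highest in the palbociclib library. Their part in the results was not tested.

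Ratios between libraries were log2 ratios of scaled counts with a pseudocount of 1, each with a 95% interval for Poisson counting error. Calls of higher or lower required a 1.5-fold ratio or more and an interval without the ratio 1. Only genes with a mean of at least 1 CPM entered, which kept 14269 genes and 92 members (79 nuclear and 13 mitochondrial). Counting error was small for most members, but libraries also differ for other reasons. A rough bound on the SD of a single log2 ratio of a typical gene was taken from the departure of the combination from the sum of both single-drug ratios. It was 0.28 over genes of at least 100 CPM, 0.26 for genes of 20 to 100 CPM and 0.46 for genes of 1 to 20 CPM. It is a robust spread across genes about their median, so a shift that a set of genes shares in 1 library is not covered.

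With palbociclib the share of reads from mitochondrial members was higher and that from nuclear members lower than untreated, and with indisulam both were lower. The 13 mitochondrial protein genes took 5.02% of gene reads in untreated cells, 6.27% under palbociclib, 4.12% under indisulam and 5.57% under the combination. The 91 nuclear members took 1.02%, 0.807%, 0.804% and 0.761% in the same order. The exact binomial 95% intervals of these shares did not overlap between libraries for the mitochondrial genes. For the nuclear members the palbociclib interval (0.802% to 0.812%) and the indisulam interval (0.799% to 0.808%) overlapped. These intervals are narrow because they cover counting error alone. Variation between libraries of the same condition is not in them and was not measured. The number of mitochondrial reads for each nuclear member read was 4.92 in the untreated library and 5.13 with indisulam, against 7.77 with palbociclib and 7.32 with the combination. Both libraries that had received palbociclib were thus above both that had not. In bulk RNA, fewer cells that express a gene and less RNA per cell cannot be told apart.

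**Figure D1:**
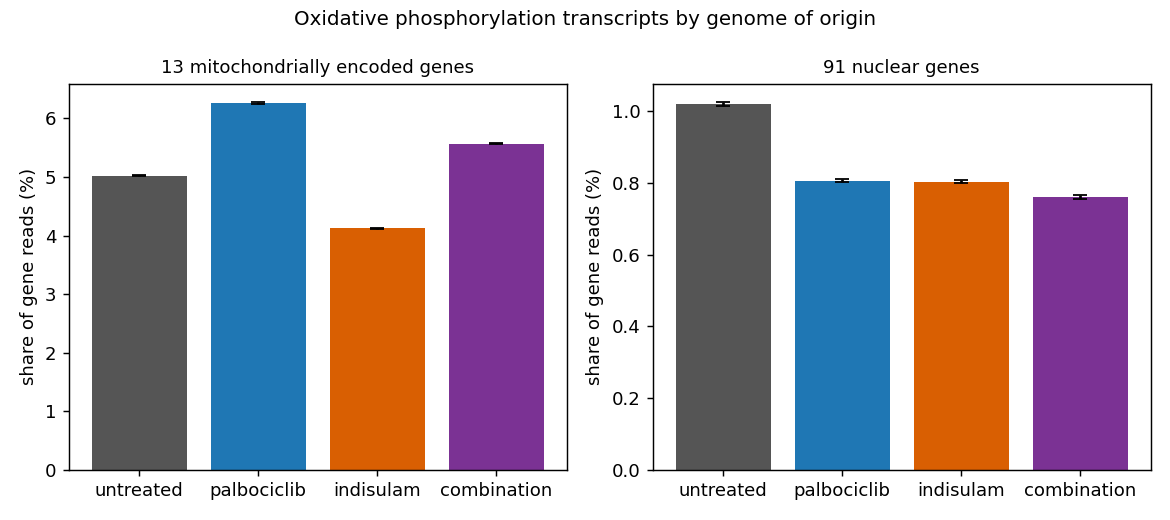
Share of all gene reads (%, bars from 0) taken by the 13 mitochondrially encoded genes (left) and the 91 nuclear members (right) in each of the 4 libraries, with exact binomial 95% intervals for counting error. The mitochondrial share was highest with palbociclib (6.27%) and lowest with indisulam (4.12%), whereas the nuclear share was highest in the untreated library (1.02%).

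Levels per length put the mitochondrial transcripts far above the nuclear ones. In reads per kilobase of merged exons per 1000000 gene reads (RPKM), the median mitochondrial member stood at 3110 in the untreated library and the median nuclear member at 35.8. Merged exons cover all annotated isoforms of a gene, so RPKM of nuclear genes and their order depend on the annotation. MT-CO1, the catalytic core of complex IV, had the highest mean level over the libraries at 9424 RPKM, followed by MT-CO3 at 8967 RPKM and MT-CO2 at 7577 RPKM. MT-ND6 had the lowest at 129 RPKM. It is the only protein gene on the opposite strand and its mRNA is known to lack a poly(A) tail, so libraries selected on poly(A) undercount it. Among nuclear members ATP5F1B, the beta subunit that carries the catalytic sites of ATP synthase, was highest in all 4 libraries, at 516 RPKM untreated and 301 RPKM with the combination.

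Most nuclear members were lower in each treated library than in the untreated library, by small amounts. The median log2 ratio of the 79 nuclear members to untreated was -0.28 with palbociclib, -0.24 with indisulam and -0.30 with the combination, where the medians over all tested genes were -0.02, 0.06 and 0.05. With palbociclib 70 members were below 0, with indisulam 66 and with the combination 64. Of all tested genes 51.7%, 45.4% and 47.1% were below 0 in the same order. At 1.5-fold, 9 nuclear members were called lower with palbociclib, where 12.2% of all tested genes were called lower. With indisulam 11 were called lower, against 14.2% of all tested genes, and with the combination 18 were called lower, against 19.4%. No nuclear member was called higher in any of these comparisons, where the shares of all tested genes called higher were 12.6% with palbociclib, 17.2% with indisulam and 23.1% with the combination. The shares of members called lower, 9, 11 and 18 of 79, were thus near the background, and none was called higher. That trait was not particular to the members. Of 14 tricarboxylic acid cycle genes none was called higher in these 3 comparisons either. Of 78 mitochondrial ribosome genes 1 was called higher with palbociclib, 4 with indisulam and 4 with the combination. The background was not matched to the members by level. In either direction and over all 92 tested members, 1, 1, 6, 1 and 0 were called at 2-fold with palbociclib, with indisulam, with the combination, for the combination against palbociclib and for the combination against indisulam, where 10.8%, 15.1%, 23.5%, 16.9% and 8.19% of all tested genes were. At a lower threshold of a 25% increase or the equal decrease, 41, 34, 43, 20 and 16 members were called, against 43.4%, 50.5%, 61.2%, 51.6% and 41.7% of all tested genes.

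These 3 comparisons share the untreated library, in which 57 of the 79 nuclear members had their highest level. The comparisons that do not use it gave smaller values. The median was -0.06 for the combination against indisulam, with 47 members below 0 and 2 called lower (10.2% of all tested genes), and -0.03 for the combination against palbociclib, with 45 members below 0 and 2 called lower (14.5% of all tested genes). The medians over all tested genes were -0.01 and 0.07, with 51.1% and 45.1% of them below 0. In the latter comparison 3 nuclear members were called higher (18.4% of all tested genes), and in the former none was (12.0%). With 1 untreated library, a lower level in each treated library and a higher level in the untreated library cannot be told apart.

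**Figure D2:**
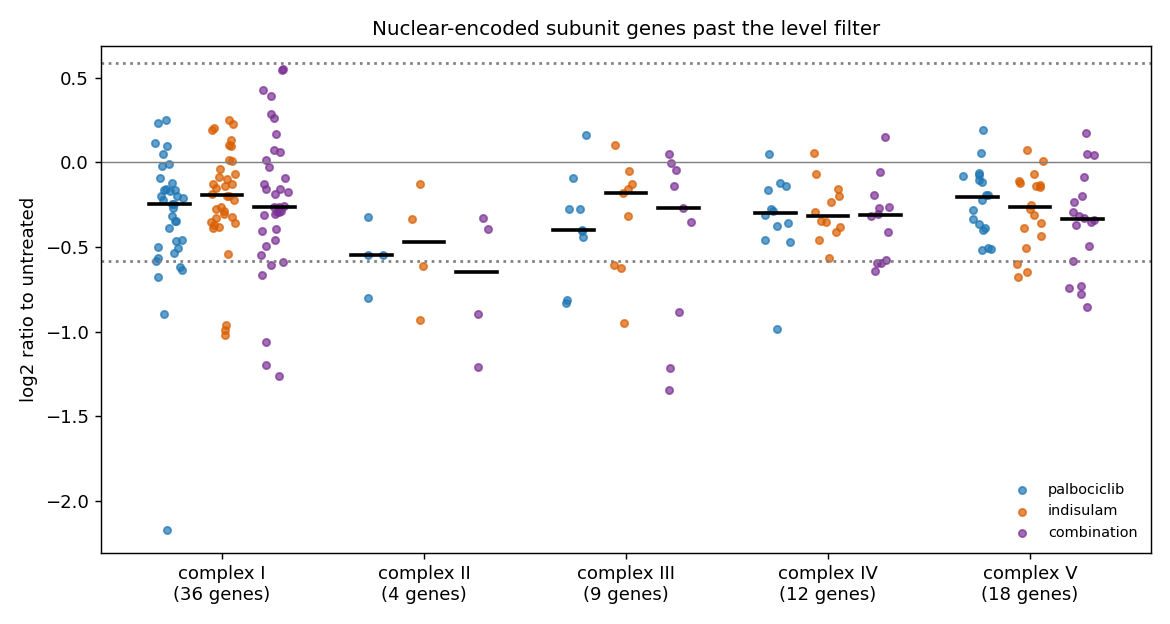
Log2 ratio to untreated of each of the 79 nuclear members past the level filter, by complex, in the palbociclib, indisulam and combination libraries. Black bars are medians and dotted lines mark 1.5-fold. No point lies above the upper dotted line, and most lie below 0.

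Complex II, succinate dehydrogenase, links the tricarboxylic acid cycle to the respiratory chain and is made of nuclear subunits alone. Its 4 genes were below 0 in all 3 treated libraries, with a median of -0.65 with the combination. SDHA (ENSG00000073578, chr5:218303-257082 on GRCh38), the flavoprotein that oxidises succinate, had 324 CPM untreated, 186 with palbociclib, 170 with indisulam and 140 with the combination. The untreated level lay above all others and the combination was lowest, and the log2 ratio of the combination to untreated was -1.21 (interval -1.29 to -1.13). SDHD, a membrane anchor, had 88.9, 60.8, 58.2 and 47.7 CPM in the same order, a log2 ratio of -0.90 for the combination. SDHB, the iron-sulfur subunit, went from 102 CPM to 77.3 CPM with the combination (log2 ratio -0.39) and was lowest with palbociclib at 69.4 CPM. The other anchor, SDHC, had 164 CPM untreated and between 130 and 131 CPM in the treated libraries. Reads of SDHA could be confused with those of 4 annotated pseudogenes, which held 278, 267, 526 and 361 reads in the 4 libraries, 6.83% of the SDHA reads in the untreated library and 18.5% with indisulam. Of the exon bases of SDHA 21.7%, and of those of SDHD 11.4%, are shared with another gene on the same strand.

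Complex III, the cytochrome bc1 complex, held the member with the lowest ratio of combination to untreated beside members near 0. CYC1 (ENSG00000179091, chr8:144095039-144097525), which encodes cytochrome c1, had 149 CPM untreated, 84.8 with palbociclib, 97.8 with indisulam and 58.7 with the combination. Its log2 ratio for the combination was -1.34 (interval -1.46 to -1.23), the lowest of all nuclear members, and it was also called lower against indisulam alone (-0.74). UQCRC1 (ENSG00000010256, chr3:48599002-48610976), a core protein, had 327, 183, 169 and 141 CPM, and the other core protein UQCRC2 had 261, 193, 170 and 141 CPM. In all 3 genes the untreated library was highest and the combination lowest, an order favoured by naming genes called lower with the combination. The Rieske iron-sulfur protein gene UQCRFS1 had 79.6, 65.9, 76.7 and 77.2 CPM. The small subunit gene UQCR11 had 37.4, 41.8, 33.5 and 38.7 CPM and the highest ratio of the complex with the combination (0.05). The median of the 9 tested members was -0.27.

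Complex I takes electrons from NADH through a peripheral arm of flavin and iron-sulfur subunits. Of its 36 tested nuclear members 6 were called lower with the combination, a smaller share than the 19.4% of all tested genes, and the median was -0.26. NDUFS1 (ENSG00000023228, chr2:206114817-206159509), the large iron-sulfur subunit, had 140 CPM untreated, 121 with palbociclib, 68.9 with indisulam and 60.9 with the combination. Both libraries that had received indisulam were below both that had not, and the ratio was called lower for indisulam with palbociclib absent (-1.02) and present (-0.99). NDUFV1, the flavoprotein that accepts electrons from NADH, had 163, 112, 130 and 102 CPM. NDUFS7, an iron-sulfur subunit next to the ubiquinone site, had 55.3, 34.6, 49.8 and 36.8 CPM, a log2 ratio of -0.59 with the combination and -0.68 with palbociclib.

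Other complex I calls need more care. NDUFB8, a membrane arm subunit, had 17.8, 9.53, 8.92 and 7.38 CPM, a log2 ratio of -1.26 (interval -1.59 to -0.93). However, 33.8% of its exon bases are shared with another gene on the same strand, where reads can be left out as ambiguous. NDUFV2, the partner of NDUFV1, had only 52, 11, 35 and 28 reads, and 28.4% of its exon bases are shared. Its log2 ratio was -2.17 with palbociclib, -0.96 with indisulam and -1.06 with the combination, and 1.11 for the combination against palbociclib. NDUFB3 and NDUFB4 were called lower with palbociclib only (-0.64 and -0.62, against -0.31 and -0.39 with the combination, differences that were not tested). At the other end, NDUFS6 had 55.5, 54.8, 66.1 and 81.3 CPM and NDUFB2 had 47.2, 56.2, 47.4 and 68.8 CPM. Their log2 ratios with the combination, 0.55 and 0.54, were the highest of the nuclear members and below the 1.5-fold threshold. NDUFS4 and NDUFA9 were called higher for the combination against palbociclib (0.63 and 0.64), where palbociclib alone had given -0.46 and -0.25. Both calls were lost under TMM factors (0.56 for both) and under DESeq2 size factors (0.57 for both).

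Complex IV reduces oxygen at a catalytic core made of mitochondrial subunits, around which the nuclear members sit. Of the 12 tested nuclear members 3 were called lower with the combination (19.4% of all tested genes), and the median was -0.31. COX5A had 118, 91.9, 88.7 and 75.5 CPM, and COX5B, which binds zinc, had 121, 87.1, 94.7 and 80.1 CPM. COX7A2 had 141, 102, 108 and 93.0 CPM. In these 3 genes the untreated library was highest and the combination lowest, which choosing them by that call favours. COX8A had 134, 67.8, 97.6 and 89.9 CPM, so palbociclib alone gave the lowest value (log2 ratio -0.98), although 35.4% of its exon bases are shared with another gene on the same strand. COX4I1, whose product is needed for assembly of the complex, had 222, 204, 230 and 214 CPM. NDUFA4 had 307, 317, 267 and 341 CPM, the highest ratio of the complex with the combination (0.15).

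Several complex IV subunits exist as tissue forms. The ubiquitous forms carried nearly all reads. COX4I2, COX6A2 and COX7A1, forms of lung and of heart and muscle, had 0 reads in every library, which allows up to 3 reads or 0.239 CPM in the untreated library. COX6B2 and COX7B2, forms of testis, had 19, 1, 5 and 2 reads and 5, 12, 18 and 8 reads, and COX8C had 5, 2, 1 and 0. Of the ubiquitous forms, COX6A1 had 89.0, 68.6, 70.0 and 73.8 CPM, COX6B1 had 148, 122, 121 and 120 CPM and COX7B had 216, 177, 146 and 162 CPM. COX7A2L, which takes part in supercomplexes, had 98.4, 88.0, 83.6 and 86.0 CPM. Per length it stood at 17.6 RPKM untreated beside 73.2 RPKM for COX7A2. That gap depends on the annotated exons, which span 5605 bases in COX7A2L and 1922 in COX7A2. NDUFA4L2, a hypoxia-induced relative of NDUFA4, had 12, 5, 6 and 5 reads. The other members under the filter were NDUFA7 (6, 2, 5 and 3 reads, with 32.5% of its exon bases shared with another gene), UQCRHL (21, 5, 11 and 15 reads), ATP5MGL and the readthrough genes NDUFC2-KCTD14 and ATP5MF-PTCD1 (at most 2 reads each).

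Complex V, ATP synthase, consists of the soluble F1 head and the membrane part with its ring of c subunits. Of 18 tested nuclear members 4 were called lower with the combination (19.4% of all tested genes), and the median was -0.33. ATP5F1B had 1156, 813, 723 and 675 CPM and ATP5F1A, the alpha subunit of the head, had 663, 502, 422 and 397 CPM. Their log2 ratios with the combination were -0.78 and -0.74. ATP5F1D, the delta subunit, had 62.4, 59.2, 41.1 and 34.5 CPM, and like NDUFS1 it was low in both libraries that had received indisulam. Its log2 ratio was -0.60 for indisulam against untreated and -0.78 for the combination against palbociclib.

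The c subunit is encoded by 3 genes with the same mature protein, and they differed. ATP5MC2 had 301, 210, 273 and 182 CPM, low in both libraries that had received palbociclib and called lower for the combination against indisulam (-0.59), a call that was lost under TMM factors (-0.58) and DESeq2 size factors (-0.58). ATP5MC1 had 76.7, 73.5, 54.0 and 60.03 CPM, low in both that had received indisulam. ATP5MC3 had 196, 172, 150 and 155 CPM. Per length ATP5MC2 was the highest of these genes in the untreated library (77.1 RPKM, against 50.6 for ATP5MC3 and 29.3 for ATP5MC1). The order was the same in CPM, while the sizes of the gaps per length depend on the annotated exons. ATP5IF1, the inhibitor of ATP hydrolysis by the complex, had 63.2, 52.1, 60.3 and 65.3 CPM, and ATP5MG had the highest ratio of the complex with the combination (0.17).

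**Figure D3:**
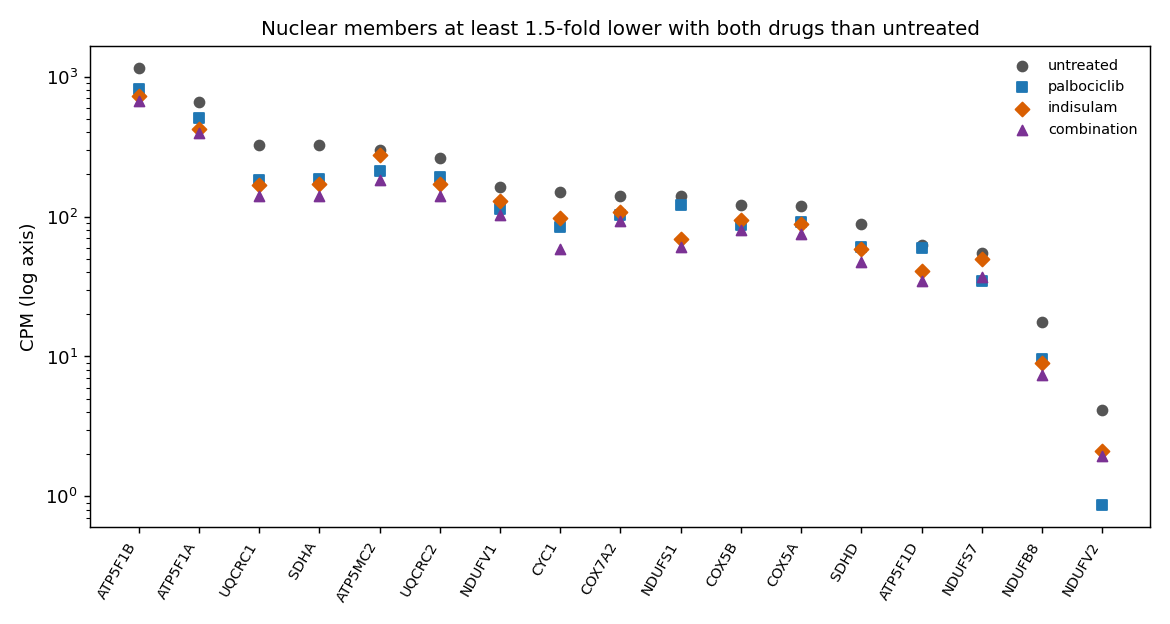
Level (CPM, log axis) in each of the 4 libraries of nuclear members called at least 1.5-fold lower with the combination than untreated, ordered by their untreated level. The untreated library was highest for all genes shown, and the combination was lowest for all of them except NDUFS7 and NDUFV2. Choosing genes by this ratio favours that order.

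Of the 18 nuclear members called lower with the combination, all were below untreated with each drug alone too, 11 were called with indisulam, 6 with palbociclib, 5 with both and 6 with neither. Only NDUFS7 and NDUFV2 were not lowest in the combination library. Choosing genes by a low ratio of combination to untreated favours a high untreated and a low combination level. These counts were thus partly fixed by the choice. The combination was less low than the sum of the log2 ratios of both drugs for 71 of 79 nuclear members, with a median departure of 0.24, against 0.01 over all tested genes. For SDHA the departure was 0.53 and for UQCRC1 0.57, whereas CYC1 (0.08) and NDUFS1 (0.02) lay close to the sum. The untreated level enters this departure as well.

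The core subunits of the peripheral arm of complex I, all of complex II, CYC1 and UQCRFS1 of complex III, and the alpha, beta, gamma and c subunits of complex V were set apart from the other nuclear members after their values had been seen. All 19 of them were below 0 with palbociclib, with indisulam and with the combination, and 11 were called lower with the combination (19.4% of all tested genes), with a median of -0.60, from which nothing is read since the group was formed with these values known. The other 60 nuclear members, most of them accessory subunits, had a median of -0.26 with 7 called lower. Without the untreated library, the medians of these 19 were -0.23 for the combination against indisulam and -0.13 for the combination against palbociclib, with 15 below 0 in each of these comparisons (not the same 15), while those of the other 60 were -0.02 and -0.00. Nothing is read from these values either, since they come from the libraries already seen when the group was formed. Exon length did not separate members by their ratio. Across the 79 nuclear genes Pearson's correlation of log2 exon length with the ratio of combination to untreated was -0.11, as a description across genes that share libraries.

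Promoters were examined for letters of factors known to act on respiratory genes. Of the 79 nuclear members 65 had a promoter of 300 bases in the RefSeq set, 250 of them before the start site. The letters GCGCNTGCG, the core of the NRF1 word, stood on either strand in 22 of these 65 (33.8%), in 14.7% of the promoters of tested genes and in 8.05% of all 27305 promoters. The letters CCGGAAGT of ETS factors stood in 15.4% of member promoters, 8.73% of those of tested genes and 4.44% of all promoters, AAGATGGCG of YY1 in 10.8%, 3.96% and 1.85%, and CCAATC in 18.5%, 19.5% and 15.7%. None of these words contains another. Among members called lower with the combination 5 of 14 held the NRF1 letters (35.7%), and among the others 17 of 51 (33.3%). CCAATC stood in 0 of the 14 and 12 of the 51. A match is a description of letters and not a binding site.

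The following stretches upstream of the start site, 5′ to 3′ on the strand of the gene (RefSeq, GRCh38), show the NRF1 letters in capitals. They are given because they stand both in members that were low and in members that were not, and the first 3 belong to members called lower with the combination while the last 2 belong to NDUFA9 and NDUFS6, with log2 ratios of 0.39 and 0.55. The SDHA promoter held the letters 4 times, of which the first is shown.
UQCRC1, chr3:48609655-48609723, minus strand: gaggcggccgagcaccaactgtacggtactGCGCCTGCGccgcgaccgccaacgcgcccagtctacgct
SDHA, chr5:218125-218193, plus strand: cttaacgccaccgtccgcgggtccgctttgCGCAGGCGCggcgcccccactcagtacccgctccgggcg
SDHD, chr11:112086733-112086801, plus strand: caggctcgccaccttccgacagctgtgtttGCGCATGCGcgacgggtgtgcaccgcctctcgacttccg
NDUFA9, chr12:4649004-4649072, plus strand: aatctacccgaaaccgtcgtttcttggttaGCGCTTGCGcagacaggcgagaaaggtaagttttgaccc
NDUFS6, chr5:1801331-1801399, plus strand: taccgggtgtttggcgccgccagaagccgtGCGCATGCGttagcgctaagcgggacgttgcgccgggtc

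The 13 mitochondrial members did not move as a block. They are cut from long transcripts of the circular genome, with ND6 on the other strand, and each mRNA then has its own stability. The median log2 ratio to untreated was 0.22 with palbociclib (10 of 13 above 0), -0.18 with indisulam (11 below 0) and 0.06 with the combination (7 above 0). Of all tested genes 51.7%, 45.4% and 47.1% were below 0 in these comparisons. At 1.5-fold, 3 were called higher with palbociclib (12.6% of all tested genes) and none lower (12.2%). With indisulam 1 was called lower (14.2%) and none higher (17.2%), and with the combination 1 was called higher (23.1%) and 1 lower (19.4%). Without the untreated library, the median was 0.24 for the combination against indisulam (12 above 0, where 51.1% of all tested genes were below 0). It was -0.23 for the combination against palbociclib (10 below 0, where 45.1% of all tested genes were). In the former 2 were called higher (12.0% of all tested genes) and 1 lower (10.2%), and in the latter 1 was called lower (14.5%) and none higher (18.4%).

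In complex IV all 3 mitochondrial genes were lowest with indisulam. MT-CO3 had 5001 CPM untreated, 8668 with palbociclib, 4870 with indisulam and 9581 with the combination, so both libraries that had received palbociclib were above both that had not. Its log2 ratio for palbociclib was 0.79 in the absence and 0.98 in the presence of indisulam. MT-CO1 had 13677, 18920, 9413 and 16118 CPM, and MT-CO2, which receives electrons from cytochrome c, had 5887, 6069, 3843 and 4931 CPM. For MT-CO1 the ratio for palbociclib was 0.47 and 0.78, and MT-CO2 was called lower with indisulam (-0.62).

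MT-CYB, the cytochrome b of complex III, had 3549, 5840, 3741 and 4965 CPM, a log2 ratio of 0.72 with palbociclib, while the nuclear cytochrome gene of that complex, CYC1, was called lower with it. Among complex I genes MT-ND1 had 2222, 3735, 2970 and 3219 CPM, above untreated in all treated libraries. MT-ND5 had 3655, 3554, 3237 and 2002 CPM. It was thus at a similar level in 3 libraries and low in the combination, where it was called lower against untreated (-0.87), against palbociclib (-0.83) and against indisulam (-0.69). Its departure from the sum of both drugs was -0.65, and that of MT-ND1 -0.63, whereas MT-CO3 departed by 0.18.

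The other complex I genes were not called. MT-ND2 had 2113, 2436, 2082 and 2866 CPM and MT-ND3 had 617, 837, 565 and 673 CPM. MT-ND4 had 9718, 8462, 7512 and 7903 CPM, and MT-ND4L, which is read from the same mRNA, had 971, 873, 746 and 779 CPM. These neighbours had similar log2 ratios with palbociclib (-0.20 and -0.15), indisulam (-0.37 and -0.38) and the combination (-0.30 and -0.32). MT-ND6 had 67.7, 70.1, 62.3 and 70.5 CPM. The pair of ATP synthase genes that share an mRNA, MT-ATP8 (268, 322, 219 and 259 CPM) and MT-ATP6 (2474, 2891, 1989 and 2314 CPM), also had similar ratios, 0.26 and 0.22 with palbociclib and -0.29 and -0.31 with indisulam.

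**Figure D4:**
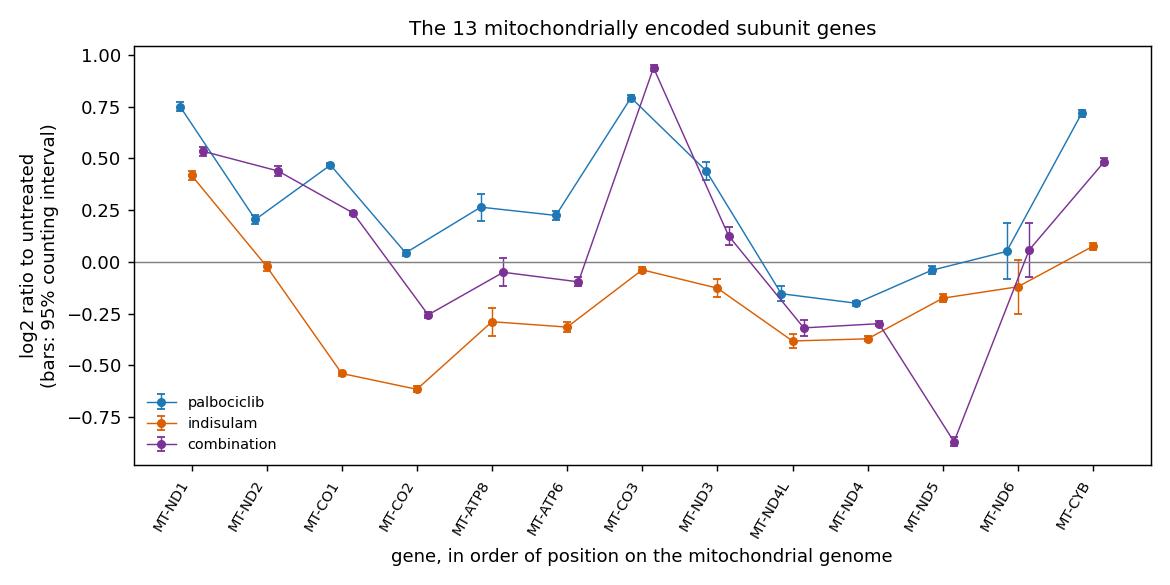
Log2 ratio to untreated of the 13 mitochondrially encoded genes, in their order along the mitochondrial genome, in the palbociclib, indisulam and combination libraries, with 95% counting intervals as bars. Palbociclib was above indisulam at every gene, and the combination lay farthest from 0 at MT-CO3 (0.94), above both drugs, and at MT-ND5 (-0.87), below both.

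Counting treats overlapping mitochondrial genes unevenly. MT-ATP8 and MT-ATP6 share 46 bases, a reading frame overlap that is shown here in capitals because reads that touch it fit both genes and can fall in the ambiguous tally, chrM:8517-8582, plus strand.
MT-ATP8 and MT-ATP6: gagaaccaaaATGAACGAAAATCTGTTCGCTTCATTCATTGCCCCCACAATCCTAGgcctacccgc
Reads that fit more than 1 gene on the mitochondrial genome numbered 3936 to 4757 per library, or 0.573 to 0.651 for each 100 reads of the 13 genes.

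Palbociclib and indisulam were each seen in 2 comparisons that have no library in common. For palbociclib, against untreated and in the combination against indisulam, 47 of 79 nuclear members were below 0 both times (59.5%, against 35.3% of all tested genes). Above 0 both times were 9 of the 79, and 4620 of the 14269 tested genes. These 47 were all the nuclear members below 0 in the combination against indisulam, where 51.1% of all tested genes were below 0. Most members were already below 0 against untreated, so the joint count mainly restates the other comparison. Of the 13 mitochondrial members 10 were above 0 both times, and only MT-ND5 was below both times. For indisulam, against untreated and in the combination against palbociclib, 45 nuclear members were below 0 both times (57.0%, against 32.2% of all tested genes). These 45 were again all the nuclear members below 0 in the combination against palbociclib, where 45.1% of all tested genes were below 0. Of the mitochondrial members 8 were below both times and none above. By complex, 14 of 18 nuclear members of complex V were below 0 both times for indisulam, against 15 of 36 of complex I.

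**Figure D5:**
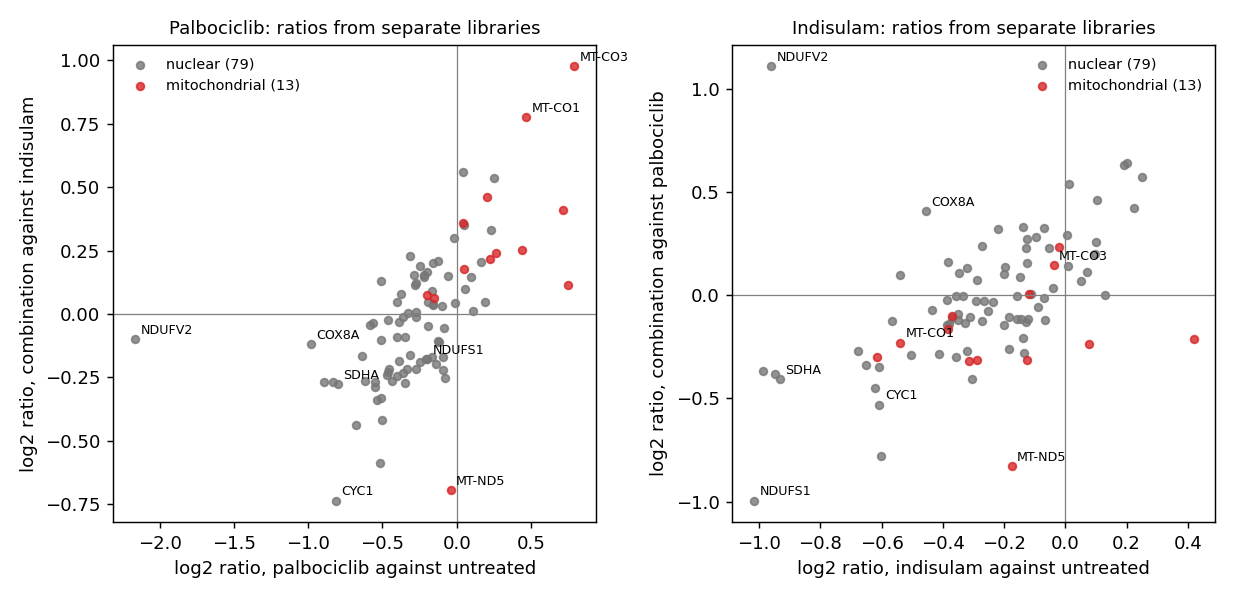
Log2 ratios of the 79 nuclear (grey) and 13 mitochondrial (red) members for palbociclib (left) and indisulam (right), each from 2 comparisons that share no library, with selected genes named. Of the mitochondrial members 10 lie above 0 on both axes for palbociclib, and 8 lie below 0 on both for indisulam.

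Genes that feed the chain were described from lists. Of 14 genes of the tricarboxylic acid cycle 7 were called lower with the combination and none higher, where 19.4% of all tested genes were called lower and 23.1% higher, and the median was -0.60. SUCLG2, a succinyl-CoA ligase subunit that acts just before succinate dehydrogenase, had 156, 64.4, 71.4 and 41.3 CPM. The isocitrate dehydrogenase genes IDH2 and IDH3B had log2 ratios of -1.23 and -0.86. Of 13 genes of pyruvate entry 7 were called lower and 1 higher, against the same shares of all tested genes, with a median of -0.59. PC, pyruvate carboxylase, which makes oxaloacetate from pyruvate, had 319 CPM untreated, 137 with palbociclib, 47.2 with indisulam and 16.0 with the combination. Its log2 ratio of -4.31 was larger in size than that of any oxidative phosphorylation member. PDK4, a kinase that inhibits pyruvate dehydrogenase, had 22.6, 5.67, 9.57 and 2.23 CPM. The pyruvate dehydrogenase subunit PDHA1 had 165, 139, 76.2 and 91.9 CPM, and the pyruvate carrier MPC1 had 27.0, 21.2, 12.2 and 16.0 CPM. PDP1, the phosphatase that activates pyruvate dehydrogenase, had 57.6, 47.5, 178 and 124 CPM.

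Mobile carriers and the enzymes that feed ubiquinone included 7 of 17 genes called lower with the combination and 2 called higher, again beside 19.4% and 23.1% of all tested genes, with a median of -0.51. COQ8A, needed for ubiquinone synthesis, had 72.1, 42.3, 33.3 and 19.9 CPM, and COQ2, which joins the ring to the tail of ubiquinone, had 29.7, 20.6, 17.4 and 14.4 CPM. ETFDH and ETFB, which bring electrons from fatty acid oxidation to ubiquinone, had log2 ratios of -1.71 and -1.19. CYCS, the gene of cytochrome c, went the other way, with 43.7, 70.6, 95.1 and 142 CPM. Its levels rank the libraries untreated, palbociclib, indisulam, combination, with a log2 ratio of 1.69 for the combination. COQ7 was the other gene called higher (0.73).

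Lists of genes that build and express the chain had medians nearer to 0 with the combination, and all counts here are to be read against the same 19.4% and 23.1%. Of 18 assembly factors of complexes I and II, 1 was called lower (ECSIT, with 34.3, 15.4, 24.5 and 14.7 CPM) and 2 higher (NDUFAF8 at 0.91 and NDUFAF5 at 0.77). Of 33 assembly factors of complexes III, IV and V, 4 were called lower and 4 higher, both under the shares of all tested genes, with a median of 0.02. SURF1, which acts in complex IV assembly, had 35.2, 27.0, 16.8 and 11.2 CPM, followed by ATPAF1 (-0.68), COX19 (-0.67) and COX18 (-0.66), while COX16 (0.92), COA7 (0.90), UQCC2 (0.69) and COX20 (0.61) were higher.

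Of 27 genes that transcribe, copy or stabilise mitochondrial nucleic acids, 2 were called lower (TFB1M at -0.97 and the polymerase gene POLG at -0.64) and 4 higher (HSD17B10 and FASTKD5 at 0.77, the mitochondrial poly(A) polymerase MTPAP at 0.68 and TRMT10C at 0.61). Among 9 nuclear regulators of mitochondrial biogenesis the coactivator PPARGC1A was called lower, with 46.9, 36.9, 28.6 and 24.3 CPM, and its relative PPRC1 higher (0.69). Of 78 genes of the mitochondrial ribosome 10 were called lower and 4 higher with the combination, both under the shares of all tested genes, with a median of -0.15. With palbociclib 58 of the 78 were below 0, with a median of -0.24, while for the combination against palbociclib 55 were above 0 (median 0.08). Of all tested genes 51.7% and 45.1% were below 0 in these comparisons. Of the 9 regulators 8 were above 0 with palbociclib (median 0.20). MRPL16 (-1.31), MRPL24 (-1.07), MRPL55 (-0.94) and MRPL2 (-0.78) were lowest and MRPS24 (1.55), MRPL33 (1.05), MRPS28 (1.02) and MRPL1 (0.81) highest. MRPL33 followed indisulam, with 55.9, 55.3, 108 and 116 CPM.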

How the data were processed

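RNA of SUM159 cells was measured in 4 libraries, 1 for each label of treatment. The authors deposited tables of raw read counts per Ensembl gene, not normalized, made from stranded poly(A) libraries. The submitters' processing notes name TopHat2 2.1, HTSeq and GRCh38, and the strand setting and annotation release are not given in the sources used here. Tallies per chromosome of reads in no gene, in several genes or at several places were kept out of totals (reads aligned at several places came to 7.15% to 7.60% of gene reads), so near-identical copies are undercounted. Gene totals were 12555908 (untreated), 12691481 (palbociclib), 16712174 (indisulam) and 14359529 (combination), and the floor of 3 reads was 0.180 to 0.239 CPM.

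Counts were scaled to the library total, as in the study, and to the mean total. With 1 library per group no test was possible, and intervals cover counting error only, since reads are not independent molecules. Ratios, intervals and calls were tested on simulated Poisson counts that hold no variation between libraries, so that test does not cover such variation. Symbols, exon lengths and shared exon bases came from GENCODE release 44, and exons of the authors' annotation may differ. TMM factors came from edgeR 4.0.16 and size factors from DESeq2 1.42.0. Python 3.11.15, numpy 2.4.6 and scipy 1.17.1 were used. Genes were named by rule: all mitochondrial members, nuclear members changed at least 1.5-fold in any comparison, the extremes of each complex by ratio of combination to untreated, SDH genes, isoform pairs, ATP5IF1, members under the filter, and up to 4 changed genes each way per other list. UQCRFS1 and NDUFA13 are mentioned outside this rule, and the printed promoters were picked after values were seen. The symbol SCO2 found no gene, and FASTKD4 is an older symbol of a gene already listed. The members and lists were chosen with earlier results of these data known. Some genes that the rule would name are not reported here.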

Additional observations from a re-analysis of the deposited data

Results flagged for a closer look

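Reads on the mitochondrial genome that aligned at more than 1 place belong to no gene and were not used. Per 1000000 gene reads they numbered 8102 in untreated cells, 10790 under palbociclib, 6279 under indisulam and 9703 under the combination, and they stand out because both libraries with palbociclib were above the untreated one. Per 100 reads of the 13 mitochondrial protein genes they came to 16.1, 17.2, 15.2 and 17.4, so they moved with the counted mitochondrial reads. Nuclear copies of mitochondrial sequence share such reads, and their part was not tested.

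NDUFV2 is listed because its 2 ratios for indisulam had opposite signs. The log2 ratio was -0.96 for indisulam against untreated and 1.11 for the combination against palbociclib, and the difference was not tested. It rests on 52, 11, 35 and 28 reads in the untreated, palbociclib, indisulam and combination libraries, and a pseudogene held 19, 18, 18 and 26 reads.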

How the results depend on the processing

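No paired analysis was possible because each group had 1 library and the labels give no replicate numbers, and no library could be left out. The median of nuclear members kept its sign in each of the 5 comparisons under all alternatives, with ranges of -0.34 to -0.26 (palbociclib), -0.34 to -0.20 (indisulam), -0.42 to -0.29 (combination), -0.10 to -0.00 (combination against palbociclib) and -0.09 to -0.03 (combination against indisulam). These include the 50 members that share no more than 10% of exon bases, an alternative chosen after seeing the data. Summed counts gave -0.42 for the combination. The medians by complex moved by less than counting error under TMM. For the 13 mitochondrial members the medians were 0.25 (palbociclib), -0.23 (indisulam), 0.0058 (combination) and -0.31 (combination against palbociclib) under TMM. DESeq2 size factors gave -0.24 (indisulam), 0.0080 (combination) and -0.30 (combination against palbociclib). Totals without mitochondrial genes gave 0.25 (palbociclib) and 0.26 (combination against indisulam). Summed counts gave 0.32, -0.28, 0.15, -0.17 and 0.43 for palbociclib, indisulam, the combination, the combination against palbociclib and the combination against indisulam. Signs held in all of these. At 2-fold 1, 1, 6, 1 and 0 members were called in that order, and at the lower threshold 41, 34, 43, 20 and 16. Without the 10 other genes of highest level the mitochondrial share was 5.29%, 6.68%, 4.40% and 5.91%. Under TMM and under DESeq2 size factors 3 single calls were lost (NDUFA9 and NDUFS4 for the combination against palbociclib and ATP5MC2 for the combination against indisulam), and 7 were gained. All 7 were calls of lower. Among them were MT-CO1 and COX7B with indisulam, COX8A with the combination and CYC1 for the combination against palbociclib. The shares of all tested genes called under these factors are not given here. Depth limits NDUFV2, NDUFA13 and the members under the filter.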

Other observations

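Several mitochondrial genes end without a full stop codon in the genome, and the poly(A) tail completes it. In the reference sequence 6 of the 13 protein genes end this way (MT-ND1, MT-ND2, MT-CO3, MT-ND3, MT-ND4 and MT-CYB) and 7 end with a complete stop. This grouping was made after the values had been seen and was not tested. With palbociclib the median log2 ratio to untreated was 0.58 for the 6 genes (range -0.20 to 0.79) and 0.05 for the 7 genes (-0.15 to 0.47). With indisulam it was -0.03 and -0.31, and with the combination 0.46 and -0.10. The ranges of the groups overlapped in all of these, with MT-ND4 the low member of the 6. For the combination against indisulam, which shares no library with palbociclib against untreated, the medians were 0.33 and 0.22. The last bases of 3 genes called higher with palbociclib and of MT-ND5 are given below from the GRCh38 reference, 5′ to 3′, plus strand, with the bases of the stop codon in capitals.
MT-CO3, chrM:9966-9990: gtctccatctattgatgagggtctT
MT-CYB, chrM:15863-15887: gaaaacaaaatactcaaatgggccT
MT-ND1, chrM:4237-4262: atctccagcattccccctcaaaccTA
MT-ND5, chrM:14122-14148: atcctaaccctactcctaatcacaTAA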
